A study of Mus musculus with 10 samples.

Results

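The genes described here are 10 clade A serpins of a cluster on mouse chromosome 12. They are Serpina1a, Serpina1b, Serpina1c, Serpina1d, Serpina1e, Serpina3k, Serpina3n, Serpina4-ps1, Serpina6 and Serpina10. They were chosen by gene name, out of 55421 gene identifiers in the count table, with their values in knockout and control livers already known. Each of the 10 was found, and each passed the filter of at least 10 counts summed over the livers, as 22449 genes did. Their values in the knockout comparisons are therefore a description without a test. A p-value is given for them only where the controls were compared with each other. Since the control values were known too, that p-value was not independent of the choice.

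Poly(A) RNA-seq was performed on whole livers of 10 male mice, taken 3 weeks after an injection of AAV8 at 6 months of age. AAV8 is a viral vector with a tropism for liver, and the promoter Tbg restricts its cargo to hepatocytes, so the other cells of the liver keep their genes. The KO group held 4 floxed mice (H3f3afl/fl_H3f3bfl/fl, C57BL/6) given AAV8 Tbg-Cre, which removes both genes of the histone variant H3.3. The WT Cre controls were 3 wildtype mice given the same virus, and the MCS controls were 3 floxed mice given AAV8 Tbg-MCS, a vector without Cre. The genotype field names HIRA for the floxed animals, and the groups follow the titles. The control columns were tied to the WT Cre or MCS group by the number in the library names. Values for all 6 controls do not depend on that step, and values for one kind of control do.

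The libraries held 14998426 to 26096141 counts, with KO 1 the lowest. H3f3a was at 28.1% and H3f3b at 31.6% of the control mean in KO livers. The hepatocyte origin of the RNA was visible in Alb, which had the highest level of the hepatocyte markers with 96920 CPM (counts scaled to a common library size after TMM adjustment) in the controls and 69200 CPM in KO livers. The 11 hepatocyte markers in the table summed to 130700 to 144900 CPM in WT Cre livers, 158200 to 182300 CPM in MCS livers and 98640 to 115500 CPM in KO livers.

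Serpins are inhibitors that present a flexible stretch, the reactive centre loop, as bait to a protease. The protease cuts the loop, the serpin snaps into a new shape, and both stay locked together. Clade A holds most of the serpins that hepatocytes secrete into the plasma. The Serpina1 genes encode alpha-1-antitrypsin, the plasma inhibitor of neutrophil elastase, and the mouse carries several copies of the single human gene. Serpina3k and Serpina3n belong to the mouse expansion of alpha-1-antichymotrypsin. Serpina6 encodes corticosteroid-binding globulin, a serpin that carries glucocorticoids in place of inhibiting a protease. Serpina10 encodes the protein Z-dependent inhibitor of coagulation factor Xa. Serpina4-ps1 is annotated as an unprocessed pseudogene.

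The 10 genes span 799.544 kb of chromosome 12, from 103614786 to 104414329 (mm10). In order they are Serpina10 (103614786 to 103631444), Serpina6 (103646630 to 103657212), Serpina1b (103728156 to 103830373), Serpina1d (103763594 to 103773592), Serpina1a (103853589 to 103863562), Serpina1c (103894926 to 103904887) and Serpina1e (103946931 to 103958975) on the minus strand. Serpina4-ps1 (104080649 to 104086724), Serpina3k (104338486 to 104346144) and Serpina3n (104406729 to 104414329) follow on the plus strand. Another 18 genes named as clade A serpins, some of them pseudogenes, are annotated within this span. The annotated span of Serpina1b covers that of Serpina1d and of the pseudogene Gm8893. Serpina1c is overlapped on the other strand by B430119L08Rik, and Serpina3k shares 60 exonic bases with Serpina3m. Since neither the strand setting nor the handling of multi-mapped reads was stated, values of these genes are uncertain where reads could be shared.

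The 5 Serpina1 copies are close to identical, which sets how far their reads can be told apart. Over the 1242 bases of coding sequence, pairs of copies were 96.3% to 98.5% identical, with Serpina1a and Serpina1c the closest pair, and 86 positions varied in at least 1 copy. These positions were uneven along the gene. No 60-base window held more of them than coding bases 1101 to 1160, with 18 of the 86 against a median of 4 per window. It lies in a single exon and encodes part of the reactive centre loop. The stretches are printed because the copies differ most densely there, with capitals at the positions that vary (GENCODE M21 transcripts, mm10, minus strand). They lie at chr12:103853757-103853816 (Serpina1a), chr12:103728324-103728383 (Serpina1b), chr12:103895094-103895153 (Serpina1c), chr12:103763762-103763821 (Serpina1d) and chr12:103947100-103947159 (Serpina1e).
Serpina1a: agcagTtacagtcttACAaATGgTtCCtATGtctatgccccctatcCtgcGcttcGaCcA
Serpina1b: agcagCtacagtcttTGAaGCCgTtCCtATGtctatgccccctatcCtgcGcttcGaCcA
Serpina1c: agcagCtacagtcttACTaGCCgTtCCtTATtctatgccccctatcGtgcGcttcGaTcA
Serpina1d: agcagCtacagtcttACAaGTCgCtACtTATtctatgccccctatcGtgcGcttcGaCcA
Serpina1e: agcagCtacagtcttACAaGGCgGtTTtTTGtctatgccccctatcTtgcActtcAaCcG
The in-frame triplet at coding bases 1129 to 1131 encodes the residue that a target protease cuts behind, which largely sets which protease is bound. It read ATG in Serpina1a and Serpina1b, TAT in Serpina1c and Serpina1d and TTG in Serpina1e. In this window Serpina1e differed from the other copies at 10 to 12 bases, and Serpina1c and Serpina1d differed from each other at 5.

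**Figure D1:**
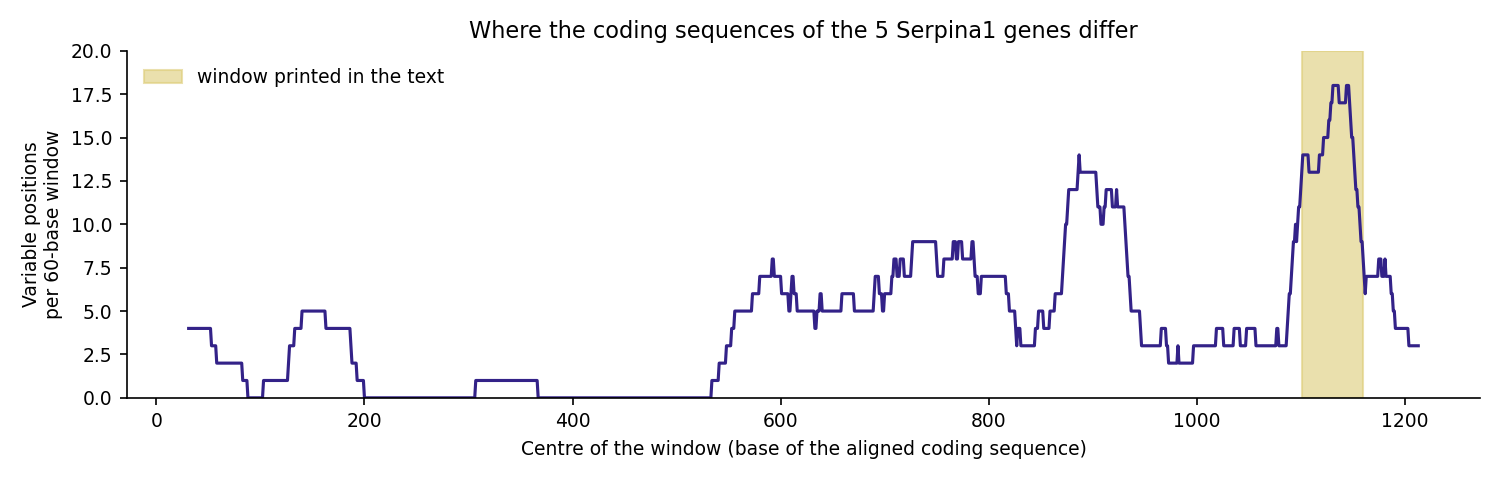
Number of positions that vary among the coding sequences of the 5 Serpina1 genes (y axis) in each 60-base window, plotted at the centre of the window along the 1242 aligned bases (x axis). The shaded window, coding bases 1101 to 1160, reaches the highest number, 18.

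RefSeq promoters (250 bases before to 50 after the start, GRCm38.p6) were found for 6 of the 10 genes, namely the 5 Serpina1 copies and Serpina3n. Serpina3k, Serpina4-ps1, Serpina6 and Serpina10 had no entry. In each Serpina1 promoter the letters TGTTTGC, which forkhead factors bind, stood 25 bases before the letters GTTAAT. The 64-base stretches that hold both are printed to show this shared element, with the motifs in capitals. They lie on the minus strand at chr12:103863617-103863680 (Serpina1a), chr12:103738192-103738255 (Serpina1b), chr12:103904954-103905017 (Serpina1c), chr12:103773626-103773689 (Serpina1d) and chr12:103956952-103957015 (Serpina1e).
Serpina1a: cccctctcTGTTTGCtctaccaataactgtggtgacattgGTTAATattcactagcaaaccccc
Serpina1b: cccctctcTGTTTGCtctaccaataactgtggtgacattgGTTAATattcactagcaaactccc
Serpina1c: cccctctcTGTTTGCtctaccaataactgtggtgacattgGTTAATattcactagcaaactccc
Serpina1d: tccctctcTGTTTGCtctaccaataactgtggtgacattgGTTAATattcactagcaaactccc
Serpina1e: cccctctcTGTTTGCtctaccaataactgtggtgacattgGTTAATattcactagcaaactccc
The stretches of the other 4 copies, chosen for these motifs, were identical to that of Serpina1a at 62 or 63 of 64 bases. On either strand, 7.2% of 27025 promoters held GTTAAT and 5.04% held TGTTTGC. Both motifs with this spacing were found in 5 promoters of all, which are those of the Serpina1 copies. The spacing was read from these near-identical copies, so that they held it was given in advance. TTGCNNAA, a form of the C/EBP site, was in the promoters of Serpina1a, Serpina1b, Serpina1d and Serpina1e and in 10.8% of all promoters. None of the 6 held TTCNNNGAA, a STAT site found in 8.47% of all promoters, or CAAAGTCCA, an HNF4 site found in 0.477%. The TBP site TATAAA was also in none of the 6, and in 14.2% of all promoters. These are matches of letters in a window, and no binding was measured.

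Levels of different genes can be set side by side only per length, so the order is given on the FPKM table and then on the counts. On the FPKM table the highest levels in MCS livers were those of Serpina1c at 4920 ± 266 FPKM (SD, n = 3) and Serpina3k at 4606 ± 399 FPKM, whose ranges overlapped. The other Serpina1 copies followed at 2750 to 3488 FPKM. Serpina3n, Serpina4-ps1, Serpina6 and Serpina10 came next at 300 ± 265, 125 ± 126, 97.4 ± 16.4 and 92.6 ± 28.2 FPKM, and each of them overlapped its neighbour in the order. On this scale the cluster held 6 abundant genes, the Serpina1 copies and Serpina3k, and 4 rarer ones. In WT Cre livers Serpina1c again led at 3307 ± 211 FPKM (SD, n = 3), and Serpina3k was at 1951 ± 635 FPKM, overlapping Serpina1d above it and Serpina1e below it. In KO livers Serpina1c led at 2728 ± 520 FPKM (SD, n = 4) and Serpina3k was below all of the Serpina1 copies at 892 ± 358 FPKM, overlapping Serpina1d. Serpina4-ps1 was last at 1.07 ± 0.6 FPKM in KO livers, where its range did not overlap that of Serpina3n above it. The order at the top was another one on the count table, as CPM per kilobase of exon, with the exons of all transcripts of a gene joined. Serpina3k then led in MCS livers at 5845 ± 754 (SD, n = 3), above Serpina1e at 2298 ± 655 and Serpina1c at 2136 ± 150, without overlap. It also led in WT Cre livers at 2230 ± 736 (SD, n = 3), above Serpina1c at 1395 ± 82.6, again without overlap. In KO livers Serpina1c at 1049 ± 349 CPM per kilobase (SD, n = 4), Serpina1e at 1040 ± 424 and Serpina3k at 963 ± 373 overlapped. Serpina1a, second on the FPKM table in KO livers, had the lowest mean CPM per kilobase of the Serpina1 copies in all 3 groups. In WT Cre livers its 475 ± 62.2 overlapped Serpina1e at 516 ± 393 (SD, n = 3 each). Serpina4-ps1 was the lowest of the 10 in KO livers on both tables. The joined exons were 2415 bases for Serpina1b and 1832 for Serpina1a, whose transcripts in the coding alignment have 1394 and 1360. The places of both in the count order, and which gene stood next to Serpina3k, depend on that length. Other lengths were not tried.

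**Figure D2:**
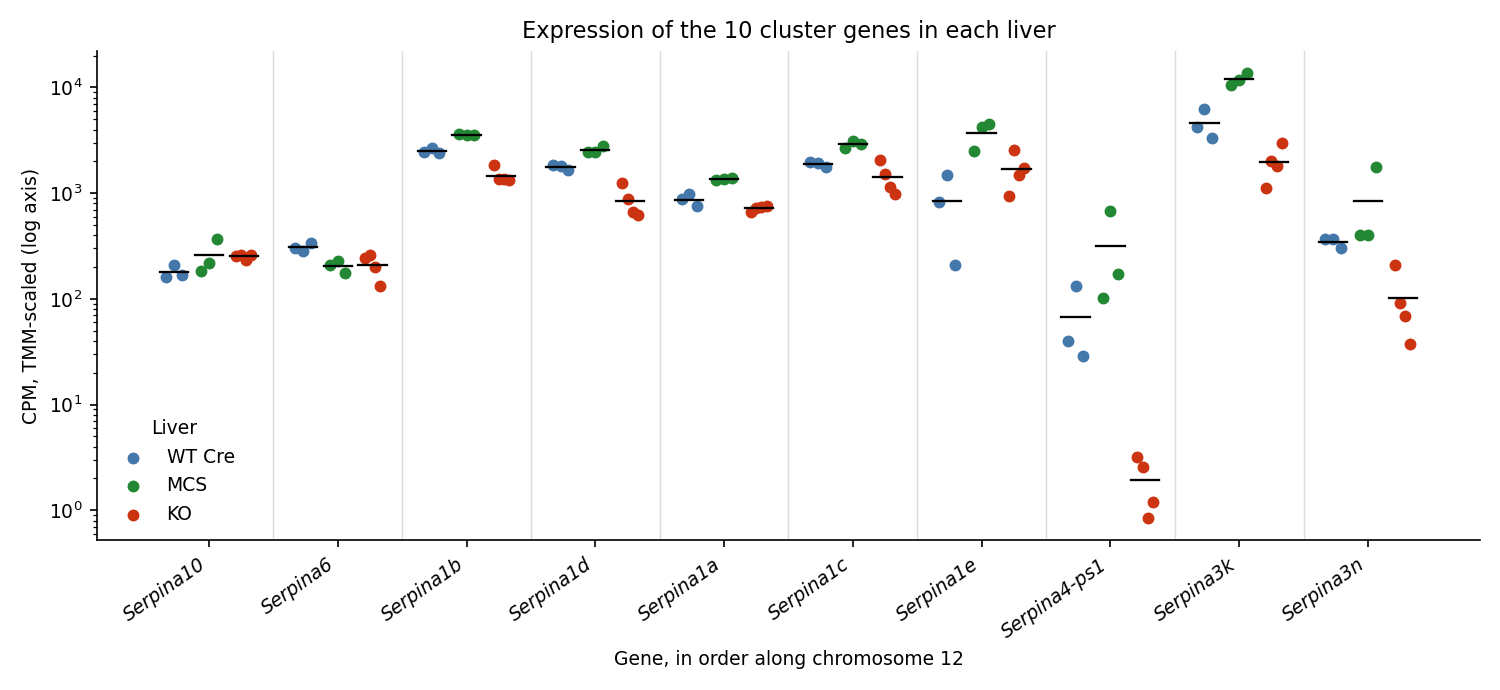
Expression of each gene in CPM (log axis) in the WT Cre, MCS and KO livers, with 1 point per liver and a bar at the group mean, genes in their order along the chromosome. For Serpina1b, Serpina1d, Serpina4-ps1, Serpina3k and Serpina3n every KO liver lies below all 6 controls, and for Serpina1e the KO livers overlap both kinds of control.

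In sum, the 10 genes took 2.51% ± 0.216 of all counts in MCS livers (SD, n = 3), 1.33% ± 0.248 in WT Cre livers (SD, n = 3) and 0.937% ± 0.0874 in KO livers (SD, n = 4). The KO livers ran from 0.852% to 1.04%, all below the WT Cre livers at 1.12% to 1.6%, which were all below the MCS livers at 2.27% to 2.69%. Counted against all 6 controls, 5 of the 10 genes were called lower in KO livers and none higher, where a gene was called if its adjusted p by edgeR was under 0.05 and its log2 fold change was beyond 1 in either direction. Of all genes tested, 5.79% were called lower. The genes were chosen with this contrast known, so nothing is read from the count. The median log2 fold change of the 10 was -0.90 beside -0.0030 for all genes tested. Against the WT Cre controls 3 of the 10 were called lower (5.33% of all genes), and against the MCS controls 6 were (5.54% of all genes). All 5 genes called against the 6 controls had every KO liver below every control, as 12% of all genes did. These are whole livers, in which fewer hepatocytes and less RNA per hepatocyte cannot be told apart.

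**Figure D3:**
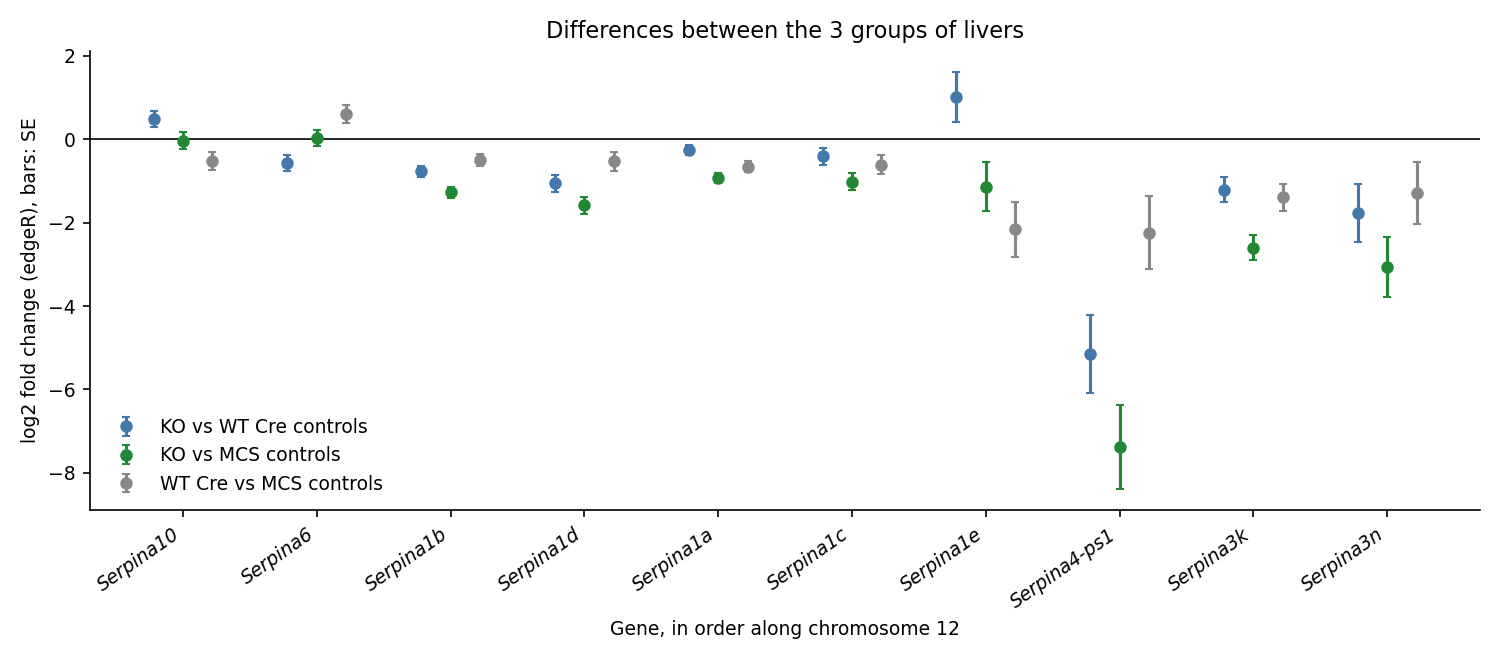
Log2 fold change from the edgeR fit (points) with its SE (bars) for each gene in KO against WT Cre controls, KO against MCS controls, and WT Cre against MCS controls. Both KO contrasts are shown without a test, and 9 of the 10 points for WT Cre against MCS lie below 0.

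Among the alpha-1-antitrypsin genes, Serpina1b and Serpina1d differed most from the controls. Serpina1b stood at 1827, 1355, 1359 and 1331 CPM in KO livers 1 to 4, at 2477, 2653 and 2381 CPM in WT Cre livers and at 3607, 3515 and 3564 CPM in MCS livers. The 3 groups did not overlap, with KO livers lowest and MCS livers highest. Its log2 fold change against all controls was -1.05 (SE 0.168), so that KO livers held 48.4% of the control mean. Leaving out any of KO 2, KO 3, KO 4 or the MCS livers put the value just inside the fold threshold, with -0.99 without MCS 1, and left it uncalled. Serpina1d stood at 1236, 885, 667 and 618 CPM in KO livers, at 1857, 1795 and 1651 CPM in WT Cre livers and at 2428, 2465 and 2797 CPM in MCS livers. Here too the groups did not overlap. The log2 fold change of Serpina1d was -1.35 (SE 0.218) against all controls, -1.05 (SE 0.203) against WT Cre and -1.59 (SE 0.204) against MCS.

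Serpina1a and Serpina1c were lower in KO livers than in MCS livers, and met the WT Cre range. Serpina1a stood at 669, 721, 742 and 762 CPM in KO livers, at 881, 978 and 751 CPM in WT Cre livers and at 1346, 1374 and 1403 CPM in MCS livers. Only KO 4 lay above the lowest WT Cre liver. Serpina1c stood at 2060, 1511, 1156 and 986 CPM in KO livers, at 1977, 1950 and 1770 CPM in WT Cre livers and at 2691, 3098 and 2931 CPM in MCS livers. KO 1 lay above all WT Cre livers, and the other KO livers lay below them. The log2 fold changes against all controls were -0.63 (SE 0.18) for Serpina1a and -0.75 (SE 0.226) for Serpina1c, and without KO 1 that of Serpina1c was -0.98.

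Serpina1e was the copy that varied most from liver to liver. It stood at 930, 2580, 1483 and 1730 CPM in KO livers, at 818, 1478 and 207 CPM in WT Cre livers and at 2505, 4181 and 4464 CPM in MCS livers. The controls spanned a 21.6-fold range, and 3 of the 4 KO livers lay above every WT Cre liver. The sign of the difference depended on the kind of control, with log2 fold changes of 1.01 (SE 0.607) against WT Cre and -1.15 (SE 0.588) against MCS. Against all 6 controls it was -0.44 (SE 0.737), smaller than its error.

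Summed over the 5 copies, the Serpina1 genes took 0.661% ± 0.0752 of counts in KO livers (SD, n = 4), 0.785% ± 0.0947 in WT Cre livers and 1.28% ± 0.0856 in MCS livers (SD, n = 3 each). Fitted as a single feature the sum had a log2 fold change of -0.84 (SE 0.231) against all controls, -0.36 (SE 0.149) against WT Cre and -1.20 (SE 0.149) against MCS. The KO livers at 0.597% to 0.755% overlapped the WT Cre livers at 0.692% to 0.882% and lay below all MCS livers.

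The make-up of the Serpina1 sum differed among livers. Serpina1e gave 13.8%, 36.6%, 27.4% and 31.9% of the Serpina1 counts in KO livers 1 to 4, 10.2%, 16.7% and 3.06% in WT Cre livers and 19.9%, 28.6% and 29.4% in MCS livers. The counts behind a share are so many that its 95% Wilson interval, which covers counting error only, was under 1 percentage point wide, for example 2.98% to 3.14% in WT Cre 3. Serpina1d gave 13.7% ± 3.18 (SD, n = 4) in KO livers and 20.4% ± 2.88 (SD, n = 6) in the controls, with KO 1 inside the control range at 18.4%. Serpina1a gave 12% ± 2.2 (SD, n = 4) and 10.4% ± 0.861 (SD, n = 6), the steadiest share of the 5 in the controls.

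**Figure D4:**
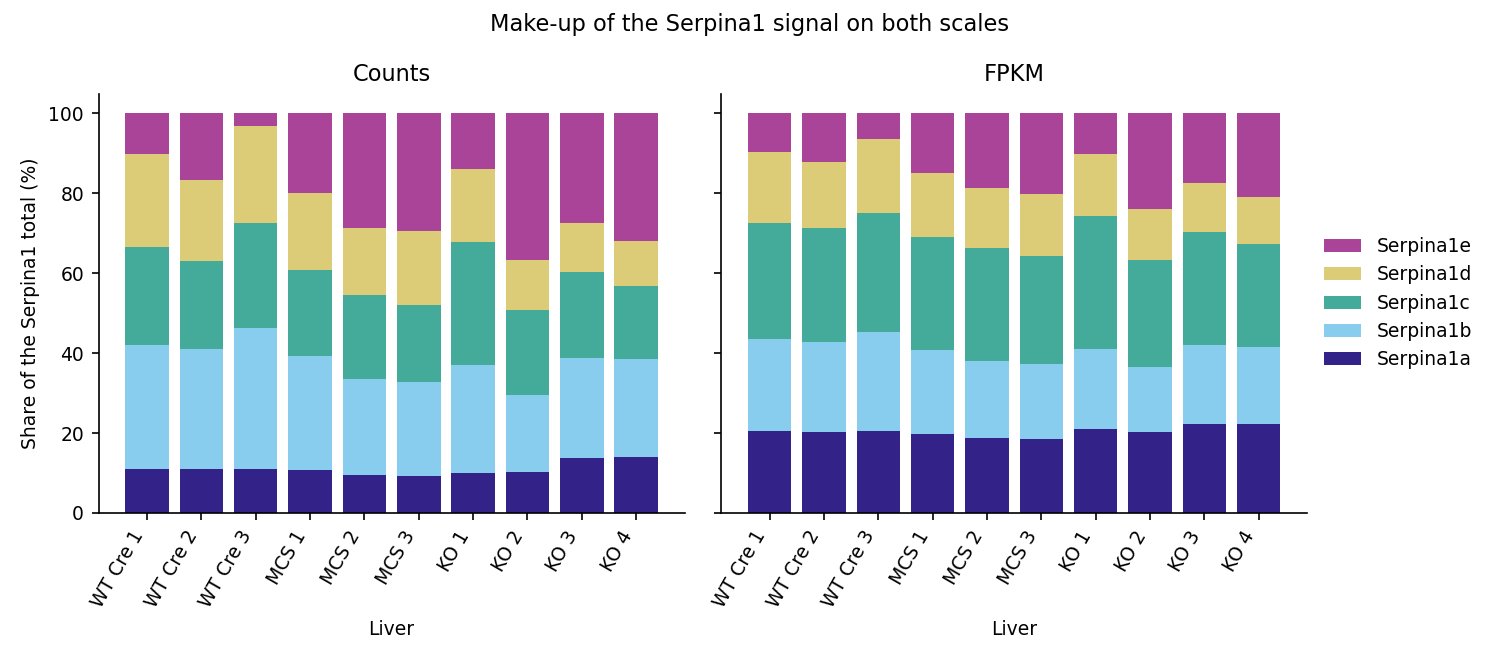
Share of the Serpina1 total (%) given by each of the 5 copies in each liver, from the deposited counts (left) and from the FPKM table (right). Serpina1e gives 3.06% of the counts in WT Cre 3 and 36.6% in KO 2, and it varies less on the FPKM scale.

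The deposited tables gave different levels for some of the copies. Of the 50-base stretches of each copy's transcripts, 73.3% in Serpina1c, 51.4% in Serpina1a, 48% in Serpina1d, 34.6% in Serpina1e and 28.2% in Serpina1b also occur in another copy. Serpina4-ps1 and Serpina6 share none with any other gene. The ratio of the listed FPKM to the counts scaled by library total (as CPM, here without TMM) and by kilobases of exon had a median over livers of 4.95 for Serpina1a, 2.64 for Serpina1b, 2.46 for Serpina1c, 1.68 for Serpina1d and 1.6 for Serpina1e. It was 0.594 to 1.43 for the other 5 genes, and 1.43 in the median of 8179 genes with at least 100 counts in every liver and an exon length under the same identifier version, of which the middle 90 percent ran from 0.825 to 4.14. In WT Cre 3, where Serpina1e had its lowest level, it was 4.98. On the FPKM scale Serpina1e stood at 653 in that liver and gave 6.27% of the Serpina1 total. The low value of Serpina1e in WT Cre 3 thus held on both scales but differed in size. What made the tables differ, the exon length used included, was not tested.

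Serpina3k, also known as contrapsin, was the most abundant of the 10 genes in counts. It stood at 1126, 2010, 1804 and 2984 CPM in KO livers, at 4209, 6254 and 3297 CPM in WT Cre livers and at 10642, 11724 and 13702 CPM in MCS livers. The 3 groups did not overlap. The log2 fold change was -2.07 (SE 0.459) against all controls, -1.21 (SE 0.295) against WT Cre and -2.60 (SE 0.303) against MCS, and KO livers held 23.9% of the control mean. Without WT Cre 2 the value against WT Cre was -0.92. Its neighbour Serpina3m, whose annotated span covers Serpina3k and with which 12.8% of its 50-base stretches are shared, did not pass the test in KO livers (log2 fold change of -0.43, SE 0.299, adjusted p = 0.298 by edgeR).

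Serpina3n encodes a secreted inhibitor that is induced in the acute phase response. It stood at 211, 90.6, 69.1 and 37.2 CPM in KO livers, at 367, 372 and 306 CPM in WT Cre livers and at 400, 403 and 1749 CPM in MCS livers. Every KO liver lay below every control, and MCS 3 lay far above the other controls. The log2 fold change against all controls was -2.56 (SE 0.72), and it was -1.86 without MCS 3 and -3.19 without KO 1. Without KO 2, KO 3 or KO 4 it was uncalled.

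The pseudogene Serpina4-ps1 had the largest difference of the 10. It stood at 3.19, 2.57, 0.843 and 1.19 CPM in KO livers, at 40, 133 and 29.1 CPM in WT Cre livers and at 102, 675 and 174 CPM in MCS livers. KO livers held 20 to 65 reads each, against 732 to 15126 in the controls, which themselves spanned a 23.2-fold range. The log2 fold change was -6.66 (SE 1.23) against all controls, -5.15 (SE 0.939) against WT Cre and -7.39 (SE 1.01) against MCS. Without MCS 2, the highest control, it was -5.65 against all controls. On log2(FPKM + 1) the value was -4.58 (SE 0.711), a scale that understates the change of low genes. The KO mean was 1.01% of the control mean.

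Serpina6 and Serpina10, at the end of the cluster with the lower coordinates, differed little from the pooled controls. Serpina6 stood at 242, 258, 198 and 133 CPM in KO livers, at 303, 286 and 340 CPM in WT Cre livers and at 208, 228 and 175 CPM in MCS livers. KO livers lay below all WT Cre livers and overlapped the MCS livers. The log2 fold changes of Serpina6 were -0.31 (SE 0.213) against all controls, -0.58 (SE 0.192) against WT Cre and 0.03 (SE 0.194) against MCS. Serpina10 stood at 254, 263, 233 and 258 CPM in KO livers, at 161, 209 and 170 CPM in WT Cre livers and at 185, 220 and 368 CPM in MCS livers. All KO livers lay above all WT Cre livers. The log2 fold changes of Serpina10 were 0.20 (SE 0.2) against all controls, 0.48 (SE 0.199) against WT Cre and -0.03 (SE 0.197) against MCS, and the last was 0.31 without MCS 3.

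The KO livers did not order the genes alike. KO 1 was the highest of the 4 for Serpina1b, Serpina1c, Serpina1d, Serpina3n and Serpina4-ps1, and the lowest for Serpina1a, Serpina1e and Serpina3k. KO 4 was the highest for Serpina1a and Serpina3k and the lowest for Serpina1b, Serpina1c, Serpina1d, Serpina3n and Serpina6. After each group was centred on its mean, the Pearson r of log2 CPM over the 10 livers was 0.97 between Serpina1c and Serpina1d, 0.90 between Serpina1a and Serpina1e, 0.83 between Serpina1a and Serpina3k and -0.72 between Serpina6 and Serpina3k. These livers share their libraries in each pair of genes, the Serpina1 copies share reads, and the values are a description over 10 livers.

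The comparison of WT Cre with MCS controls asked how far the kinds of control differ, and it used no KO liver in its contrast. The genes were chosen with the control values known, so its p-values for them were not independent of that choice. In 9 of the 10 genes the WT Cre level was the lower, with a median log2 fold change of -0.64 beside 0 for all genes tested. Serpina1a passed the test with a log2 fold change of -0.66 (SE 0.127, adjusted p = 0.0301 by edgeR), and every WT Cre liver lay below every MCS liver. Genes lower at an adjusted p under 0.05 were 0.486% of all genes. Of the 8 alternatives that left out a WT Cre or MCS liver, or KO 2 or KO 3, all left it short of the threshold, with adjusted p-values of 0.0564 to 0.183. The sum of the 5 Serpina1 copies was also lower, by a log2 fold change of -0.84 (SE 0.162, adjusted p = 0.0291 by edgeR).

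Several genes had a larger difference between the controls and a larger error. Serpina3k had a log2 fold change of -1.39 (SE 0.323, adjusted p = 0.0846 by edgeR) in WT Cre against MCS livers, and it passed without KO 1 (0.0305), without KO 4 (0.0217) and with DESeq2 (0.00132). Serpina1e had -2.16 (SE 0.659, adjusted p = 0.247 by edgeR) and passed with DESeq2 (0.0134). Serpina4-ps1 had -2.24 (SE 0.876, adjusted p = 0.412 by edgeR) and Serpina3n had -1.29 (SE 0.749, adjusted p = 0.62 by edgeR). The single gene that was higher in WT Cre livers was Serpina6, with 0.60 (SE 0.207, adjusted p = 0.271 by edgeR), and its WT Cre livers all lay above its MCS livers. None of the 10 was called by edgeR at the fold threshold, where 0.641% of all genes were. DESeq2 called 2 (1.4% of all genes), and 9 of the 10 had an unadjusted p under 0.05 with edgeR, as 10.7% of all genes did. In 7 of the 10 every WT Cre liver lay below every MCS liver in CPM, as 11.2% of all genes did. The hepatocyte markers summed lower in WT Cre than in MCS livers too, and their part in these differences was not tested.

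Around the cluster, 56 further genes are annotated within 500 kb of its ends, and 32 of them were tested. In KO livers 4 were called higher and 2 lower, where 12.9% and 5.79% of all genes were. Within the span of the cluster the 2 called lower were the pseudogene Gm8893, which lies inside the annotated Serpina1b and shares sequence with the Serpina1 copies (log2 fold change of -1.13, SE 0.304, adjusted p = 0.0147 by edgeR), and Serpina3c (-1.46, SE 0.389, adjusted p = 0.0104 by edgeR). Gm8893 was also lower in WT Cre than in MCS livers (-1.03, SE 0.191, adjusted p = 0.0254 by edgeR). Serpina3f, Serpina3g and Serpina3i, which lie between Serpina4-ps1 and Serpina3k, rose by log2 fold changes of 1.37 (SE 0.325, adjusted p = 0.00665 by edgeR), 1.51 (SE 0.382, adjusted p = 0.012 by edgeR) and 2.13 (SE 0.553, adjusted p = 0.00907 by edgeR). They were rare, and Serpina3i reached 0.65 CPM in KO livers. Outside the span, the interferon-stimulated gene Ifi27l2a rose by 1.76 (SE 0.165, adjusted p = 9.09e-06 by edgeR). Dicer1 and Ddx24, beyond either end, had log2 fold changes of 0.11 (SE 0.092, adjusted p = 0.371 by edgeR) and 0.11 (SE 0.0859, adjusted p = 0.367 by edgeR).

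**Figure D5:**
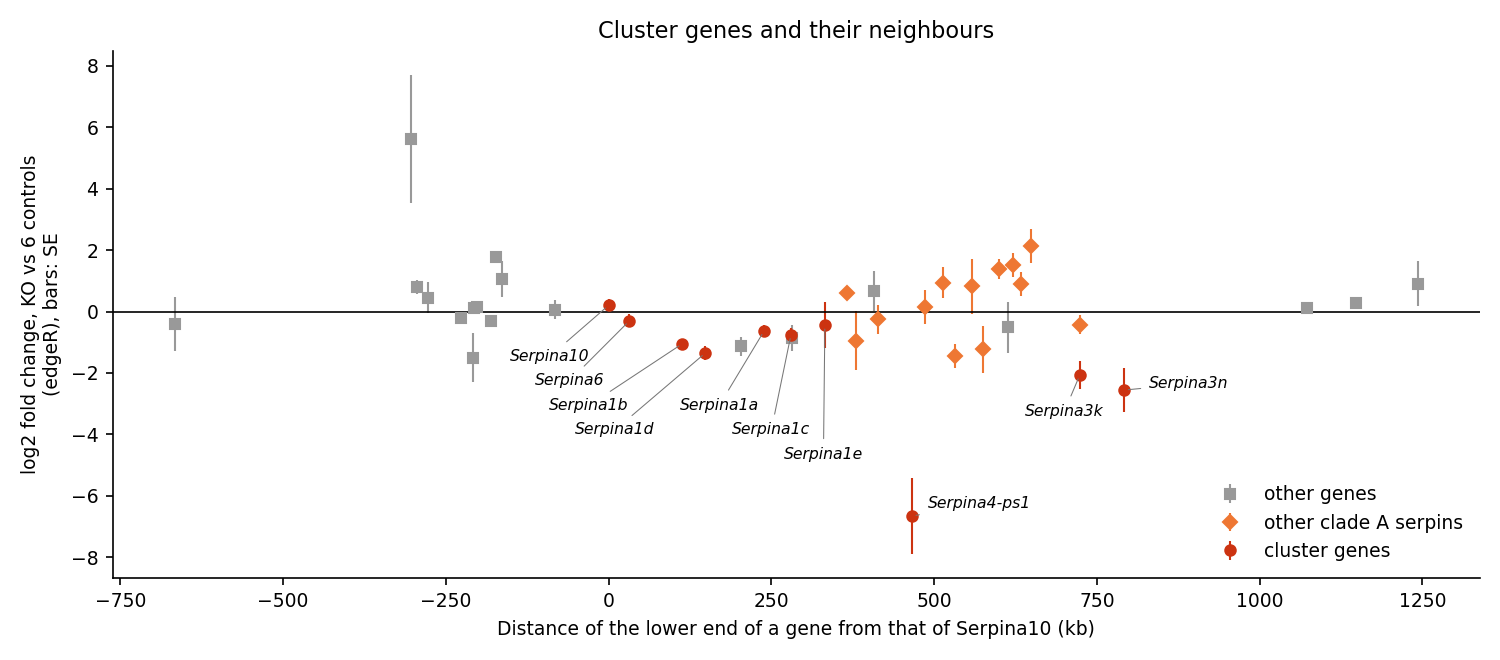
Log2 fold change of KO against the 6 controls with its SE (y axis) for the 10 cluster genes and the 32 tested neighbours, by distance along the chromosome from Serpina10 in kb (x axis). Genes lower and higher in KO livers stand side by side within the span, from -6.66 for Serpina4-ps1 to 2.13 for Serpina3i.

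Against all controls, 12.9% of all genes were called higher in KO livers and 5.79% lower. Of 17 other clade A serpins listed, 13 were tested, of which 5 were called higher and 1 lower in KO livers, with a median log2 fold change of 0.90. Agt, the precursor of angiotensin, was the most abundant of them and rose by 1.39 (SE 0.123, adjusted p = 5.64e-06 by edgeR). Serpina7, which encodes thyroxine-binding globulin, rose by 1.75 (SE 0.418, adjusted p = 0.0096 by edgeR). Of 13 serpins of other clades, 4 were called higher and 1 lower, with a median of 0.05. Serpinc1, which encodes antithrombin and was the most abundant of these, did not pass the test (0.05, SE 0.106, adjusted p = 0.77 by edgeR).

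Partners and targets of the cluster products were read from fixed lists. Their counts stand beside 12.9% of all genes called higher in KO livers and 5.79% called lower. Of 12 tested proteases and partners, 1 was called lower and none higher in KO livers, with a median log2 fold change of -0.30. It was Klkb1, the gene of plasma kallikrein, at -1.21 (SE 0.18, adjusted p = 0.000244 by edgeR). F9, Plg, Proc and F2 fell at the adjusted p alone, where 16.6% of all genes fell and 19.7% rose. F10 and Proz, the coagulation factor that Serpina10 inhibits and the cofactor it needs, had log2 fold changes of -0.02 (SE 0.112, adjusted p = 0.892 by edgeR) and -0.12 (SE 0.117, adjusted p = 0.447 by edgeR). Of 11 genes of the glucocorticoid axis, which Serpina6 serves as a carrier, 2 were called lower and none higher, with a median of -0.48. They were Tat, a glucocorticoid-induced aminotransferase (-1.05, SE 0.317, adjusted p = 0.0231 by edgeR), and Srd5a1, a steroid reductase (-1.07, SE 0.213, adjusted p = 0.00211 by edgeR). Of 17 genes for the folding, export and degradation of alpha-1-antitrypsin, 1 was called higher and 1 lower, with a median of 0.05. The higher one was Fkbp10 (1.59, SE 0.228, adjusted p = 0.000178 by edgeR), and the lower one was Derl2 (-1.02, SE 0.145, adjusted p = 0.000175 by edgeR), and the chaperone gene Calr, the most abundant of the list, had -0.01 (SE 0.123, adjusted p = 0.967 by edgeR).

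Among 15 hepatocyte transcription factors 1 was called lower in KO livers and none higher, and the median log2 fold change was -0.26. The shares of all genes were 5.79% called lower and 12.9% called higher. The gene called was Foxa2, a forkhead factor, at -1.08 (SE 0.217, adjusted p = 0.00235 by edgeR). At the adjusted p alone Rxra (-0.78, SE 0.103, adjusted p = 9.63e-05 by edgeR) fell, and Prox1 rose (0.69, SE 0.143, adjusted p = 0.0023 by edgeR). Hnf4a (-0.55, SE 0.227, adjusted p = 0.0763 by edgeR), Foxa1 (-0.35, SE 0.203, adjusted p = 0.207 by edgeR) and Cebpa (-0.27, SE 0.133, adjusted p = 0.137 by edgeR) did not pass. Cebpb did not pass in KO livers (-0.09, SE 0.273, adjusted p = 0.83 by edgeR) and was lower in WT Cre than in MCS livers (-0.997, adjusted p = 0.0157 by edgeR).

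Serpina3n is a gene of the acute phase response, and the listed genes of that response moved in both directions. Of 23 tested, 3 were called higher and 5 lower, with a median log2 fold change of -0.34. The 23 genes summed to 16070 to 19820 CPM in WT Cre livers and 22300 to 45670 CPM in MCS livers. KO livers, at 17260 to 21040 CPM, overlapped the WT Cre livers and lay below all MCS livers. For this list and the next, the shares of all genes were 12.9% called higher and 5.79% called lower. Hpx, the haem-binding hemopexin and the most abundant by mean level, rose by 1.31 (SE 0.142, adjusted p = 2.5e-05 by edgeR), as did Saa3 at 4.08 (SE 0.521, adjusted p = 0.00039 by edgeR). Orm3 fell, with a value of -3.55 (SE 1.19, adjusted p = 0.0426 by edgeR). Of 16 genes of the growth hormone and STAT5 pathway, which sets male expression of several liver genes, 1 was called higher and 2 lower, with a median of -0.39. Cux2 rose by 5.41 (SE 0.335, adjusted p = 1.12e-06 by edgeR), and Elovl3 and Mup3 were at -3.75 (SE 0.299, adjusted p = 6.54e-06 by edgeR) and -3.22 (SE 0.292, adjusted p = 9.6e-06 by edgeR).

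Markers of other liver cells differed from list to list in how far they moved with the KO group. Of all genes tested, 12.9% were called higher in KO livers and 5.79% lower. At the adjusted p alone, 19.7% were higher and 16.6% lower. All 10 Kupffer cell and macrophage markers were called higher, with sums of 252 to 472 CPM in the controls and 589 to 1278 CPM in KO livers. Of 10 stellate cell markers 4 were called higher, with sums of 235 to 314 CPM and 533 to 862 CPM. At the adjusted p alone 9 of the stellate cell markers were higher. Of 10 lymphoid markers 6 were called higher (11.1 to 15.3 CPM and 22.2 to 61.6 CPM), as were 4 of 6 tested neutrophil markers (3.54 to 13.1 CPM and 6.25 to 28.5 CPM) and 2 of 8 cholangiocyte markers (42.3 to 64.2 CPM and 56.1 to 77.2 CPM). None of 8 endothelial markers was called by edgeR, while 2 were higher at the adjusted p alone, with sums of 220 to 278 CPM and 242 to 424 CPM. Of the 11 hepatocyte markers 3 were called lower and 8 were lower at the adjusted p alone, with a median log2 fold change of -0.95 beside -0.90 for the 10 cluster genes. None of the marker lists had a gene at 0 in all livers. The part of these cells in the levels of the cluster genes was not tested.

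The genes most like 4 of the cluster genes were sought among 7928 genes with a mean of at least 10 CPM, by the Pearson r of group-centred log2 CPM over the 10 livers. For Serpina1e they were Enpp2, Esyt2, Rce1, Serpinf2 and Cyp4f14, with r of 0.93 to 0.96, and Enpp2 and Serpinf2 were also lower in WT Cre than in MCS livers (log2 fold changes of -0.87 and -0.65, edgeR adjusted p of 0.0209 and 0.0411). For Serpina4-ps1 they were Vtn, Ube2e3, Id3, H2-T23 and Tmx4, with r of 0.90 to 0.92. For Serpina6 they were Vps52, Rhot1, Relch, Uvssa and Map2k5, with r of 0.97 to 0.99. For Serpina3n they were Nrbf2, Tfpi2, Mtch2, Scfd1 and Ufsp2, with r of 0.96 to 0.98, and none of these 5 was among the first 5 by Spearman's rho. With so many genes and 10 livers, values of this size are a description of these libraries.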

How the data were processed

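RNA of 10 livers was read as poly(A) libraries, and the authors aligned the reads with STAR to mm10 (labels; HTSeq and Cufflinks are also named there and HOMER in the methods, so the counter is uncertain). The deposited counts per gene are whole numbers without normalization. The deposited FPKM values have no stated tool, and blank cells were read as 0. Strand setting and reads with several matches are not given in the sources used here.

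The main test was edgeR quasi-likelihood, version 4.0.16 under R 4.3.3 (two-sided, TMM, robust, no covariates), with Benjamini-Hochberg adjustment over 22449 genes with at least 10 counts. Called genes (DEGs) had an adjusted p below 0.05 and more than 1 log2 unit of change. KO was fitted against 6 controls in 2 groups, and the other contrasts in 3 groups. SE was taken from the F statistic of each gene. Log2 CPM used a prior count of 2. FPKM was tested with limma 3.58.1. The labels name no batch. In simulated data with 200 genes changed 4-fold up or down, the fit of KO against all controls recovered 95 percent, with 4 false calls. That of WT Cre against MCS recovered 88 percent, with 12 false calls. The KO contrasts of the real data held many more called genes, most of them higher, and that setting was not simulated. Replicates differed by 11.5 to 109 times the sampling noise, so none was a repeat. Coding sequences (GENCODE M21 transcripts) were aligned with MAFFT 7.526.

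The members, gene lists and tests were chosen with earlier results of these data known. Beside the 10 genes, the text names from each list up to 3 called genes with the largest change and the most abundant gene, any hepatocyte transcription factor, and called neighbours. F9, Proc, F2, F10, Proz, Serpina3m, Dicer1 and Ddx24 were named after their values were seen. Results for some listed genes are not reported here. Alternatives were DESeq2 1.42.0, other scaling and filters, log2(FPKM + 1) and log2(FPKM + 0.1), summed Serpina1 copies, a replicate block and leaving out each liver.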

Additional observations from a re-analysis of the deposited data

Results flagged for a closer look

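In 20 groups of values (each of the 10 genes in the 4 KO livers and in the 6 controls), 4 had 1 liver far from the others by Dixon's test, where chance flags about 1 in 20. Serpina10 was at 368.4 CPM in MCS 3, against 161.4 to 220.1 CPM in the other controls. Serpina3n was at 1749 CPM in the same liver, against 305.8 to 402.8 CPM. Serpina4-ps1 was at 675.3 CPM in MCS 2, against 29.06 to 173.8 CPM in the other controls. Serpina1b was at 1827 CPM in KO 1, against 1331 to 1359 CPM in the other KO livers, and KO 1 was the library with the fewest counts.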

How the results depend on the processing

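For the 10 genes, none of the log2 fold changes against all controls that passed the call turned its sign under any alternative. The number of them called against all controls was 5, and 3 with limma on log2(FPKM + 1) and on log2(FPKM + 0.1), where Serpina1b and Serpina1d were within 1 on the log2 scale. DESeq2 gave 4, since it gave no adjusted p for Serpina3n. All DEGs numbered 4199 against all controls, 3566 against WT Cre and 3926 against MCS, and 1278, 1131 and 1379 with limma on log2(FPKM + 1). Between the controls, 144 DEGs became 314 with DESeq2 and 95 with limma on log2(FPKM + 1), and the 0 members called became 2 with DESeq2. Scaling by library size only left Serpina1a short of the threshold between the controls (-0.52, adjusted p of 0.0694). Over all genes tested, this scaling put the median difference on the log2 scale at 0.17, 0.13, 0.25 and 0.14 in KO against all, WT Cre and MCS controls and between the controls. The share of DEGs that were higher went from 69% to 79.3%, from 66.4% to 74.1%, from 68.3% to 81.7% and from 46.5% to 62.7%. Leaving out 1 liver at a time gave 3492 to 4710 DEGs and 3 to 5 members against all controls, 2743 to 4375 and 2 to 4 against WT Cre, 3087 to 4726 and 5 to 7 against MCS, and 66 to 259 and 0 to 1 between the controls. Where a liver was left out of 3, the spread was shared by all groups. With the replicate number as a block, the members called were 4, 2, 4 and 1 in these comparisons, and DEGs between the controls were 221. Same-numbered livers of different groups correlated at -0.12 to 0.20 after centring, and differently numbered ones at -0.281 to 0.325. Between WT Cre and MCS livers, same-numbered pairs were at 0.094 to 0.122 and the other pairs at -0.133 to 0.0179. Whether the numbers mark a pairing was not tested. Against the TMM-adjusted library the 10 genes took 0.87% in KO livers and 2.06% in the controls. By Spearman's rho 3, 4, 4 and 0 of the first 5 genes most like Serpina1e, Serpina4-ps1, Serpina6 and Serpina3n were shared. The cause of these changes was not tested. The main limits are the shared reads of the Serpina1 copies, 3 livers in each control group, and the match of control columns to groups.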
